A study of Mus musculus with 8 samples.

Results

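Interferon-stimulated genes are the genes that cells switch on after interferon binds its receptors, and 36 of them were followed here by name across 4 lines of mouse colon fibroblasts. They were taken by their symbols from the 45321 genes to which the RNA sequencing reads had been summed, and 34 of the 36 passed the expression filter among 12963 genes tested, while Oas2 and Mx1 did not. The fibroblasts had grown out of pieces of mouse colon left after the crypts were removed and were kept as adherent cultures. The Fib-Ctrl cultures were Zeb1 flox/flox, meaning that the gene carried loxP sites but was intact, and the Fib-dZeb1 cultures were Zeb1 del/del after Cre recombinase had been induced in the dish. All cultures therefore came from animals with loxP-flanked Zeb1, and the labels give no further treatment for either genotype. Each genotype had 2 lines, each line had 2 replicate libraries of polyadenylated RNA, and the lines carry the numbers 1 and 2 in the labels. The Cre driver, the age of the animals and the handling of Fib-Ctrl at Cre induction are not given for these cultures, so deletion of Zeb1 and exposure to Cre cannot be told apart. As the replicates of a line share its cells of origin, the difference between lines of 1 genotype is shown beside each difference between genotypes.

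Type I interferons signal through the receptor pair IFNAR1 and IFNAR2 to the kinases JAK1 and TYK2, which phosphorylate STAT proteins such as STAT2. A complex of STAT2 and IRF9 binds the interferon-stimulated response element (ISRE) in the promoters of antiviral genes, whereas interferon gamma acts at the gamma-activated site (GAS). Fibroblasts are a classical cell type for this response, and many of its genes, such as Ddx58, Irf7 and Stat2, are themselves parts of the sensing and signalling machinery.

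RefSeq promoter windows of the build GRCm38.p6 were at hand for 27 of the 36 genes, each reaching from 250 bases before the start site to 50 bases after it. Parp14, Dhx58, Oas2, Rtp4, Mx2, Mx1, Iigp1, Ifi27 and Usp18 had none. The core of the ISRE was searched on both strands as GAAA, 2 bases of any kind and GAAA, and the GAS as TTC, 3 bases of any kind and GAA. An ISRE core stood in the windows of 16 of the 27 genes (59.3%) and in 1079 of 27025 symbols of the whole table (3.99%). A GAS stood in 8 of the 27 (29.6%) and in 2582 of the 27025 (9.55%). The 16 genes held 24 ISRE cores when overlapping matches were counted singly, of which 12 lay wholly within 100 bases before the start site and 1 shared bases with a GAS. The stretches below are those of genes whose levels are described in the next paragraphs, written 5′ to 3′ along the gene, with the ISRE core on either strand in capitals. Ifit1, Ifit3 and Ifit3b are neighbours on chromosome 19, and their stretches show a pair of separate cores each. Isg15, Bst2 and Oas1a show cores that run into each other, and Igtp, Gbp2 and Stat2 show a single core.
Ifit1 (GRCm38.p6, chr19:34640760-34640838, plus strand): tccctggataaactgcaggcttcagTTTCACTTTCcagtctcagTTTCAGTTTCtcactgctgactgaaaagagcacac
Ifit3 (GRCm38.p6, chr19:34583348-34583441, plus strand): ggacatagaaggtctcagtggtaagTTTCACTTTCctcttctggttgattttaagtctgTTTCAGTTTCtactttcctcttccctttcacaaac
Ifit3b (GRCm38.p6, chr19:34607744-34607837, plus strand): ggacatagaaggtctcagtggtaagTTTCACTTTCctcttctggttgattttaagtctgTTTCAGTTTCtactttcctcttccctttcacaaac
Isg15 (GRCm38.p6, chr4:156200850-156200921, minus strand): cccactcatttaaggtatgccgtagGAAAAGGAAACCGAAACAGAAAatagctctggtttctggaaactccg
Bst2 (GRCm38.p6, chr8:71537562-71537627, minus strand): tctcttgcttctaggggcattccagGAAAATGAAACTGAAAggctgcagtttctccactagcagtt
Oas1a (GRCm38.p6, chr5:120907526-120907570, minus strand): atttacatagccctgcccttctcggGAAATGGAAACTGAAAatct
Igtp (GRCm38.p6, chr11:58199497-58199555, plus strand): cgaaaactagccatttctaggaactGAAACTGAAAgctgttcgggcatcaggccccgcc
Gbp2 (GRCm38.p6, chr3:142620579-142620638, plus strand): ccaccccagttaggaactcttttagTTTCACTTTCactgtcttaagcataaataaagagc
Stat2 (GRCm38.p6, chr10:128270251-128270310, plus strand): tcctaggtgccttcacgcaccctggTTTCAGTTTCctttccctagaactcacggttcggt
Ddx58 (GRCm38.p6, chr4:40239804-40239833, minus strand): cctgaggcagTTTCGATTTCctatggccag
Ifih1 (GRCm38.p6, chr2:62646206-62646233, minus strand): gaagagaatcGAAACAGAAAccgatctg
In Ddx58 and Ifih1 the core lay in the first transcribed bases, so only 30 and 28 bases are shown. The Ifit3 and Ifit3b stretches of 94 bases are the same letter for letter, and reads from such near-identical copies can be divided wrongly, so the values of both genes are uncertain. The windows of Irf7, Irf9, Irf1, Oasl1, Oasl2, Cmpk2, Ifit2, Ifi35, Ifi44, Trim25 and Xaf1 held no such core, which says only that these letters are not in these 300 bases.

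**Figure D1:**
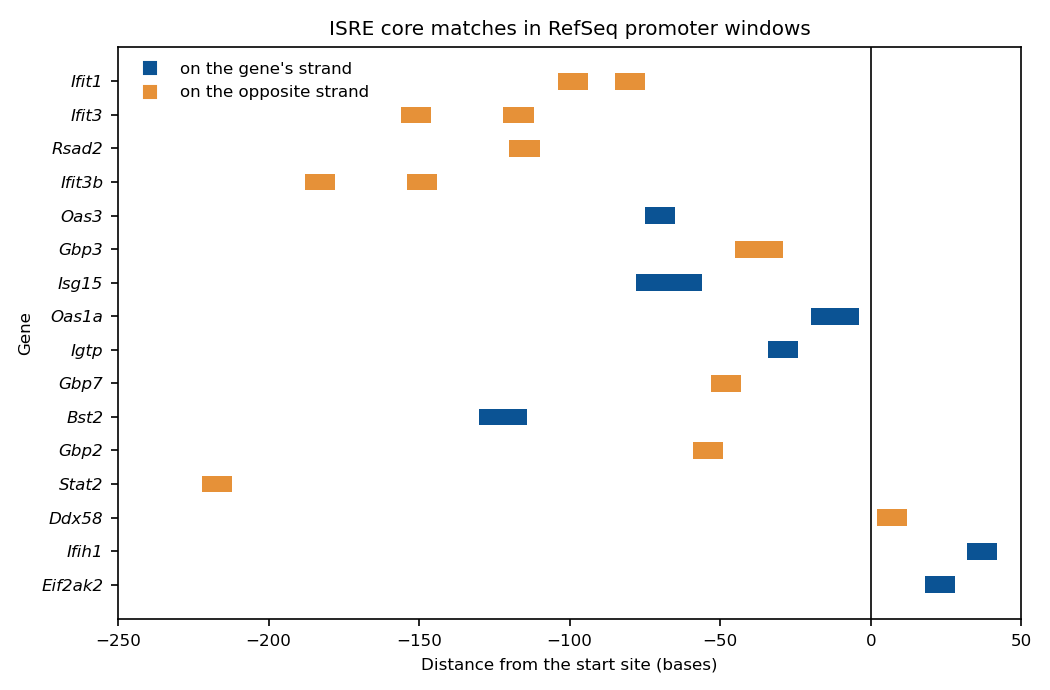
Position of each ISRE core (bars; blue on the strand of the gene, orange on the opposite strand) relative to the start site at 0, in bases, for the 16 genes with a match, ordered from the largest fall between the Fib-Ctrl lines at the top. Of the 24 cores 12 lie within 100 bases before the start, that of Stat2 is the farthest away at -222, and those of Ddx58, Ifih1 and Eif2ak2 lie after the start.

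The libraries held 18852422 to 25540529 reads. Zeb1 itself read 92.1 to 98.5 CPM (TMM-scaled read counts relative to library size) in the 4 Fib-Ctrl libraries and 11.4 to 18.3 CPM in the 4 Fib-dZeb1 libraries, as the labels have it. Fib-dZeb1 line 1 had Xist reads and no Ddx3y reads and the other 3 lines the reverse, so the lines do not all share a sex. The 9 fibroblast marker genes summed to 7190 to 19000 TPM (the transcript share of a library, corrected for length) in all 8 libraries. The chi-square between the replicate libraries of 1 line was 19.3 to 74.7 per gene, far above the value near 1 that counting noise gives, so none was a copy.

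Across the 4 lines, the interferon-stimulated genes separated Fib-Ctrl line 1 from Fib-Ctrl line 2 more than they separated the genotypes. The median over the 34 tested genes was 22.5 and 10.2 CPM in Fib-Ctrl line 1 (replicates 1 and 2), 1.46 and 1.29 CPM in Fib-Ctrl line 2, 14.0 and 3.41 CPM in Fib-dZeb1 line 1 and 7.54 and 4.92 CPM in Fib-dZeb1 line 2. Fib-Ctrl line 2 was thus the lowest line and Fib-Ctrl line 1 the highest, with both Fib-dZeb1 lines between them. Of the 34 genes, 32 had their lowest line mean in Fib-Ctrl line 2 and 29 their highest in Fib-Ctrl line 1, and 22 followed the full order Fib-Ctrl line 1, Fib-dZeb1 line 1, Fib-dZeb1 line 2 and Fib-Ctrl line 2. Both Fib-Ctrl line 2 libraries lay below the other 6 in 29 of the 34 (13.0% of all genes tested), whereas both Fib-Ctrl line 1 libraries lay above the other 6 in 7 (12.9% of all genes tested). The highest single library was Fib-Ctrl line 1 replicate 1 in 26 of the 34. In bulk libraries such as these, fewer responding cells and less RNA per cell cannot be told apart.

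**Figure D2:**
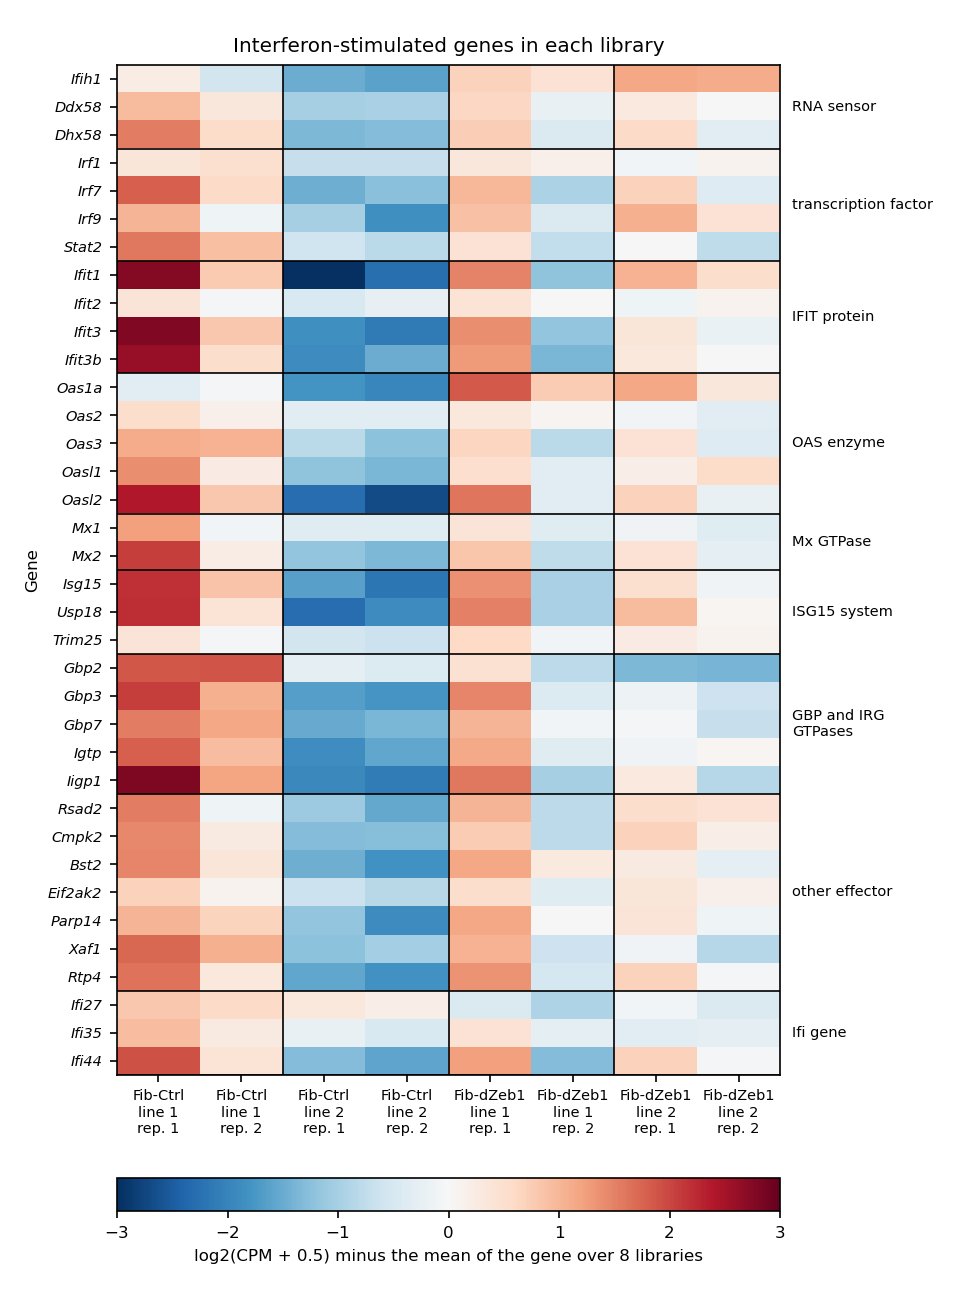
Each row is 1 of the 36 genes, grouped by role, and each column 1 library. Colour gives log2(CPM + 0.5) minus the gene's mean over 8 libraries, from blue (lower) to red (higher), so genes near 0 CPM such as Oas2 and Mx1 look pale. The 2 columns of Fib-Ctrl line 2 are blue for nearly every gene, and the first column, Fib-Ctrl line 1 replicate 1, is the reddest.

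Between the Fib-Ctrl lines, 26 of the 34 genes were lower in line 2 and none was higher (edgeR quasi-likelihood test with Benjamini-Hochberg adjustment over all genes, adjusted p from 0.00255 to 0.0416), against 8.72% of all genes tested that were lower in line 2. The log2 difference of line 2 minus line 1 was negative for all 34, with a median of -3.18 beside -0.01 over all genes tested. All 26 that passed differed at least 2-fold and 17 of them at least 8-fold. The 8 that did not pass had adjusted p from 0.0513 to 0.15. The count rests on few libraries. It was 8 without Fib-Ctrl line 1 replicate 1 (6.59% of all genes tested were then called) and 2 without either Fib-Ctrl line 2 library, namely Irf1 and Parp14 without replicate 1 (5.82% of all genes) and Irf1 and Gbp7 without replicate 2 (4.97% of all genes). The lone library left was assumed to vary like the other lines. The shares of all genes in those fits count calls in either direction, whereas the interferon-stimulated genes called there were all lower in line 2. The median of the 34 stayed between -3.68 and -2.52 whichever library was left out.

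The 3 RNA sensors all fell. Ddx58, which encodes the sensor RIG-I and was the most abundant sensor at a mean of 27.1 TPM, read 98.1 and 64.9 CPM in Fib-Ctrl line 1, 25.3 and 25.8 CPM in Fib-Ctrl line 2, 78.2 and 43.7 CPM in Fib-dZeb1 line 1 and 62.2 and 50.4 CPM in Fib-dZeb1 line 2. Its Fib-Ctrl lines did not overlap with each other (log2 difference -1.67, SE 0.30, adjusted p = 0.0117). Dhx58 encodes LGP2, a helicase that tunes the other sensors, and read 7.51 and 3.55 CPM in Fib-Ctrl line 1, 0.582 and 0.619 CPM in Fib-Ctrl line 2, 4.06 and 1.55 CPM in Fib-dZeb1 line 1 and 3.60 and 1.69 CPM in Fib-dZeb1 line 2. It fell about as far as the median gene (log2 difference -3.19, SE 0.68, adjusted p = 0.0206). Ifih1, the gene of the sensor MDA5, read 27.5 and 16.1 CPM in Fib-Ctrl line 1, 8.09 and 7.43 CPM in Fib-Ctrl line 2, 38.7 and 32.4 CPM in Fib-dZeb1 line 1 and 53.5 and 52.2 CPM in Fib-dZeb1 line 2. It fell between the Fib-Ctrl lines (log2 difference -1.49, SE 0.25, adjusted p = 0.00905) but, unlike the other sensor genes, was highest in Fib-dZeb1.

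Of the 4 transcription factor genes 3 fell. Irf1, which responds early to both interferon types and was the most abundant at 32.8 TPM, read 43.7 and 47.6 CPM in Fib-Ctrl line 1, 21 and 20.8 CPM in Fib-Ctrl line 2, 43.3 and 37.6 CPM in Fib-dZeb1 line 1 and 32.3 and 36.8 CPM in Fib-dZeb1 line 2. Its replicates were close together in every line, so a fall of little over 2-fold gave the smallest adjusted p of the 34 (log2 difference -1.13, SE 0.13, adjusted p = 0.00255). Irf7, the amplifier of type I interferon transcription, read 14.7 and 6.07 CPM in Fib-Ctrl line 1, 1.11 and 1.34 CPM in Fib-Ctrl line 2, 8.31 and 1.80 CPM in Fib-dZeb1 line 1 and 6.65 and 2.90 CPM in Fib-dZeb1 line 2 (log2 difference -3.08, SE 0.82, adjusted p = 0.0416). Stat2, which encodes a part of the ISRE-binding complex, read 74.8 and 46.2 CPM in Fib-Ctrl line 1, 16.2 and 13.8 CPM in Fib-Ctrl line 2, 33.2 and 14.5 CPM in Fib-dZeb1 line 1 and 24.3 and 14.4 CPM in Fib-dZeb1 line 2 (log2 difference -2.01, SE 0.43, adjusted p = 0.0216). Both were highest in Fib-Ctrl line 1 replicate 1. Irf9, the DNA-binding part of that complex, did not pass (log2 difference -2.0, SE 0.58, adjusted p = 0.0536). Reads of Irf7 and Irf9 may be shared with Phrf1 and Rnf31, which overlap them in the annotation, since the strand setting of the counting is not given.

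The IFIT genes, whose proteins bind foreign RNA, held both extremes of the range. Ifit1 read 46.2 and 11.3 CPM in Fib-Ctrl line 1, 0.291 and 0.929 CPM in Fib-Ctrl line 2, 18.9 and 2.47 CPM in Fib-dZeb1 line 1 and 13.6 and 9.36 CPM in Fib-dZeb1 line 2. It stood 47.1-fold higher in Fib-Ctrl line 1 than in line 2 by mean CPM (log2 difference -5.52, SE 1.21, adjusted p = 0.0231), and its highest library exceeded its lowest 159-fold, the widest span of the 28 genes with more than 3 reads in every library. Ifit3 read 34.8 and 8.49 CPM in Fib-Ctrl line 1, 0.932 and 0.671 CPM in Fib-Ctrl line 2, 12.9 and 1.76 CPM in Fib-dZeb1 line 1 and 6.15 and 4.0 CPM in Fib-dZeb1 line 2 (log2 difference -4.76, SE 1.10, adjusted p = 0.0273). Ifit3b read 18.7 and 4.01 CPM in Fib-Ctrl line 1, 0.349 and 0.619 CPM in Fib-Ctrl line 2, 7.11 and 0.712 CPM in Fib-dZeb1 line 1 and 3.42 and 2.64 CPM in Fib-dZeb1 line 2 (log2 difference -4.52, SE 1.21, adjusted p = 0.0414). Both followed Ifit1 in being highest in Fib-Ctrl line 1 replicate 1. Ifit2 was the most abundant of the group at 9.88 TPM and the steadiest of the 28, with 25.7 and 18.7 CPM in Fib-Ctrl line 1, 14.0 and 16.2 CPM in Fib-Ctrl line 2, 26 and 19.4 CPM in Fib-dZeb1 line 1 and 17.9 and 20.8 CPM in Fib-dZeb1 line 2. Its span was 1.86-fold, and it did not pass (log2 difference -0.56, SE 0.22, adjusted p = 0.119).

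Among the oligoadenylate synthetase (OAS) genes, some of whose products activate RNase L in defence against double-stranded RNA, 3 of the 4 tested fell. Oasl2, the most abundant at 7.61 TPM, read 28.9 and 9.21 CPM in Fib-Ctrl line 1, 0.641 and 0.361 CPM in Fib-Ctrl line 2, 16.4 and 3.98 CPM in Fib-dZeb1 line 1 and 8.52 and 4.26 CPM in Fib-dZeb1 line 2 (log2 difference -5.25, SE 0.98, adjusted p = 0.0133). Its lines stood in the usual order, with Fib-Ctrl line 2 at the bottom. Oasl1 read 3.21 and 1.18 CPM in Fib-Ctrl line 1, 0.116 and 0.0516 CPM in Fib-Ctrl line 2, 1.53 and 0.628 CPM in Fib-dZeb1 line 1 and 1.14 and 1.58 CPM in Fib-dZeb1 line 2 and Oas1a 1.19 and 1.59 CPM in Fib-Ctrl line 1, 0.116 and 0.0516 CPM in Fib-Ctrl line 2, 7.11 and 3.10 CPM in Fib-dZeb1 line 1 and 4.24 and 2.17 CPM in Fib-dZeb1 line 2. Each had only 3 reads in both Fib-Ctrl line 2 libraries together, so the ratio of line 1 to line 2 is best read with its counting interval: 27.4 (exact 95% interval 9.11 to 136) for Oasl1 and 16.8 (5.47 to 84.0) for Oas1a. Both passed (adjusted p = 0.0143 for Oasl1 and 0.0174 for Oas1a). Oas1a differed from its relatives in that both Fib-dZeb1 lines lay above Fib-Ctrl line 1. Oas3 also had 3 reads in Fib-Ctrl line 2 (ratio 23.9, interval 7.89 to 118) and did not pass (adjusted p = 0.0513). Oas2 had 13 reads in Fib-Ctrl line 1 and none in line 2, which makes it at least 3.84-fold higher in line 1 against a floor of 3 reads over the line.

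The Mx genes encode antiviral GTPases, but the annotation lists Mx2 as a polymorphic pseudogene. Its reads therefore do not show that a working protein was made. Mx2 read 5.41 and 1.13 CPM in Fib-Ctrl line 1, 0.116 and 0.0516 CPM in Fib-Ctrl line 2, 2.01 and 0.335 CPM in Fib-dZeb1 line 1 and 1.41 and 0.661 CPM in Fib-dZeb1 line 2, with 3 reads in Fib-Ctrl line 2 (ratio 41.3, interval 13.9 to 203, adjusted p = 0.0357). Mx1 had 24 reads in Fib-Ctrl line 1 and none in line 2, at least 7.08-fold higher in line 1 against the same floor, and no library passed 1.01 CPM. In the ISG15 system, Isg15 encodes a ubiquitin-like protein and was the most abundant at 32.0 TPM, with 28.8 and 11.2 CPM in Fib-Ctrl line 1, 1.57 and 0.929 CPM in Fib-Ctrl line 2, 16.0 and 2.76 CPM in Fib-dZeb1 line 1 and 8.48 and 5.47 CPM in Fib-dZeb1 line 2 (log2 difference -4.0, SE 0.90, adjusted p = 0.0246). It was 16.0-fold higher in Fib-Ctrl line 1 than in line 2 by mean CPM. Usp18, which removes ISG15 and damps receptor signalling, read 16.0 and 4.22 CPM in Fib-Ctrl line 1, 0.233 and 0.465 CPM in Fib-Ctrl line 2, 9.64 and 1.30 CPM in Fib-dZeb1 line 1 and 6.38 and 3.19 CPM in Fib-dZeb1 line 2 (log2 difference -4.82, SE 1.19, adjusted p = 0.0336). Both showed a drop from replicate 1 to replicate 2 in Fib-Ctrl line 1 and in Fib-dZeb1 line 1. Trim25, a ubiquitin ligase acting on RIG-I, did not pass (log2 difference -0.77, SE 0.24, adjusted p = 0.0623).

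All 5 guanylate-binding and immunity-related GTPase genes, which act on vacuoles of intracellular parasites and bacteria, fell. Gbp2, the most abundant at 20.1 TPM, read 70.6 and 70.9 CPM in Fib-Ctrl line 1, 15.5 and 14.2 CPM in Fib-Ctrl line 2, 26.1 and 10.7 CPM in Fib-dZeb1 line 1 and 7.15 and 6.83 CPM in Fib-dZeb1 line 2 (log2 difference -2.25, SE 0.36, adjusted p = 0.00734). Its lowest line was not Fib-Ctrl line 2 but Fib-dZeb1 line 2, and the replicates of Fib-Ctrl line 1 were nearly equal. Gbp3 read 15.6 and 7.51 CPM in Fib-Ctrl line 1, 0.699 and 0.619 CPM in Fib-Ctrl line 2, 9.98 and 2.34 CPM in Fib-dZeb1 line 1 and 2.92 and 1.95 CPM in Fib-dZeb1 line 2 (log2 difference -4.13, SE 0.77, adjusted p = 0.0136). Gbp7 read 14.7 and 11.3 CPM in Fib-Ctrl line 1, 1.34 and 1.55 CPM in Fib-Ctrl line 2, 10.2 and 4.44 CPM in Fib-dZeb1 line 1 and 4.6 and 2.75 CPM in Fib-dZeb1 line 2 (log2 difference -3.16, SE 0.47, adjusted p = 0.00604). Both had Fib-Ctrl line 2 as the lowest line. Igtp read 18.3 and 9.88 CPM in Fib-Ctrl line 1, 0.990 and 1.34 CPM in Fib-Ctrl line 2, 11.4 and 3.73 CPM in Fib-dZeb1 line 1 and 4.6 and 5.21 CPM in Fib-dZeb1 line 2 (log2 difference -3.58, SE 0.59, adjusted p = 0.00882). Iigp1 read 17.5 and 5.35 CPM in Fib-Ctrl line 1, 0.175 and 0.103 CPM in Fib-Ctrl line 2, 7.16 and 0.795 CPM in Fib-dZeb1 line 1 and 2.64 and 0.918 CPM in Fib-dZeb1 line 2, an 82.4-fold ratio of the Fib-Ctrl lines on only 5 reads in line 2 (log2 difference -6.33, SE 1.39, adjusted p = 0.0228). Igtp overlaps Irgm2 on the same strand, and their reads may be mixed.

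Of the 7 other effectors 6 fell. Bst2, the gene of tetherin, which holds budding virus at the cell surface, was the most abundant at 89.6 TPM and read 58.2 and 27.0 CPM in Fib-Ctrl line 1, 7.28 and 5.52 CPM in Fib-Ctrl line 2, 47.1 and 25.5 CPM in Fib-dZeb1 line 1 and 25.3 and 17.1 CPM in Fib-dZeb1 line 2 (log2 difference -2.74, SE 0.46, adjusted p = 0.00905). Xaf1, a promoter of apoptosis, read 16.7 and 10.4 CPM in Fib-Ctrl line 1, 1.69 and 2.06 CPM in Fib-Ctrl line 2, 10.2 and 2.85 CPM in Fib-dZeb1 line 1 and 4.28 and 2.35 CPM in Fib-dZeb1 line 2 (log2 difference -2.85, SE 0.63, adjusted p = 0.0232). Both had their lowest libraries in Fib-Ctrl line 2, with a narrow gap to Fib-dZeb1 line 2 replicate 2 for Xaf1. Eif2ak2, the kinase PKR that halts translation, read 84.3 and 56.1 CPM in Fib-Ctrl line 1, 33.3 and 29.3 CPM in Fib-Ctrl line 2, 75.6 and 40.3 CPM in Fib-dZeb1 line 1 and 67.4 and 58.4 CPM in Fib-dZeb1 line 2 and moved the least of the 6 (log2 difference -1.17, SE 0.31, adjusted p = 0.0396). Parp14, an ADP-ribosyltransferase, read 34.9 and 27.2 CPM in Fib-Ctrl line 1, 7.22 and 4.23 CPM in Fib-Ctrl line 2, 38.4 and 16.7 CPM in Fib-dZeb1 line 1 and 22.2 and 15.5 CPM in Fib-dZeb1 line 2 (log2 difference -2.44, SE 0.44, adjusted p = 0.0120). Cmpk2, a mitochondrial nucleotide kinase next to Rsad2 on chromosome 12, read 4.81 and 1.85 CPM in Fib-Ctrl line 1, 0.291 and 0.310 CPM in Fib-Ctrl line 2, 2.82 and 0.628 CPM in Fib-dZeb1 line 1 and 2.64 and 1.76 CPM in Fib-dZeb1 line 2 (log2 difference -3.45, SE 0.86, adjusted p = 0.0349). For all of the 6 but Xaf1 the library Fib-dZeb1 line 1 replicate 1 lay above Fib-Ctrl line 1 replicate 2, and for Parp14 above replicate 1 too. Rtp4 read 18.6 and 7.15 CPM in Fib-Ctrl line 1, 1.57 and 1.24 CPM in Fib-Ctrl line 2, 15.0 and 3.77 CPM in Fib-dZeb1 line 1 and 9.39 and 5.36 CPM in Fib-dZeb1 line 2 (log2 difference -3.20, SE 0.77, adjusted p = 0.0308) and lies across Masp1 in the annotation, which had 24890 reads against which its own cannot be fully separated. Rsad2, the gene of viperin, had 3 reads in Fib-Ctrl line 2 (ratio 28.3, interval 9.41 to 140) and did not pass (adjusted p = 0.0621). No Ifi gene passed, with Ifi44 at log2 difference -3.16, SE 0.94, adjusted p = 0.0583, Ifi35 at log2 difference -0.99, SE 0.29, adjusted p = 0.0568 and Ifi27 at log2 difference -0.45, SE 0.19, adjusted p = 0.150.

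**Figure D3:**
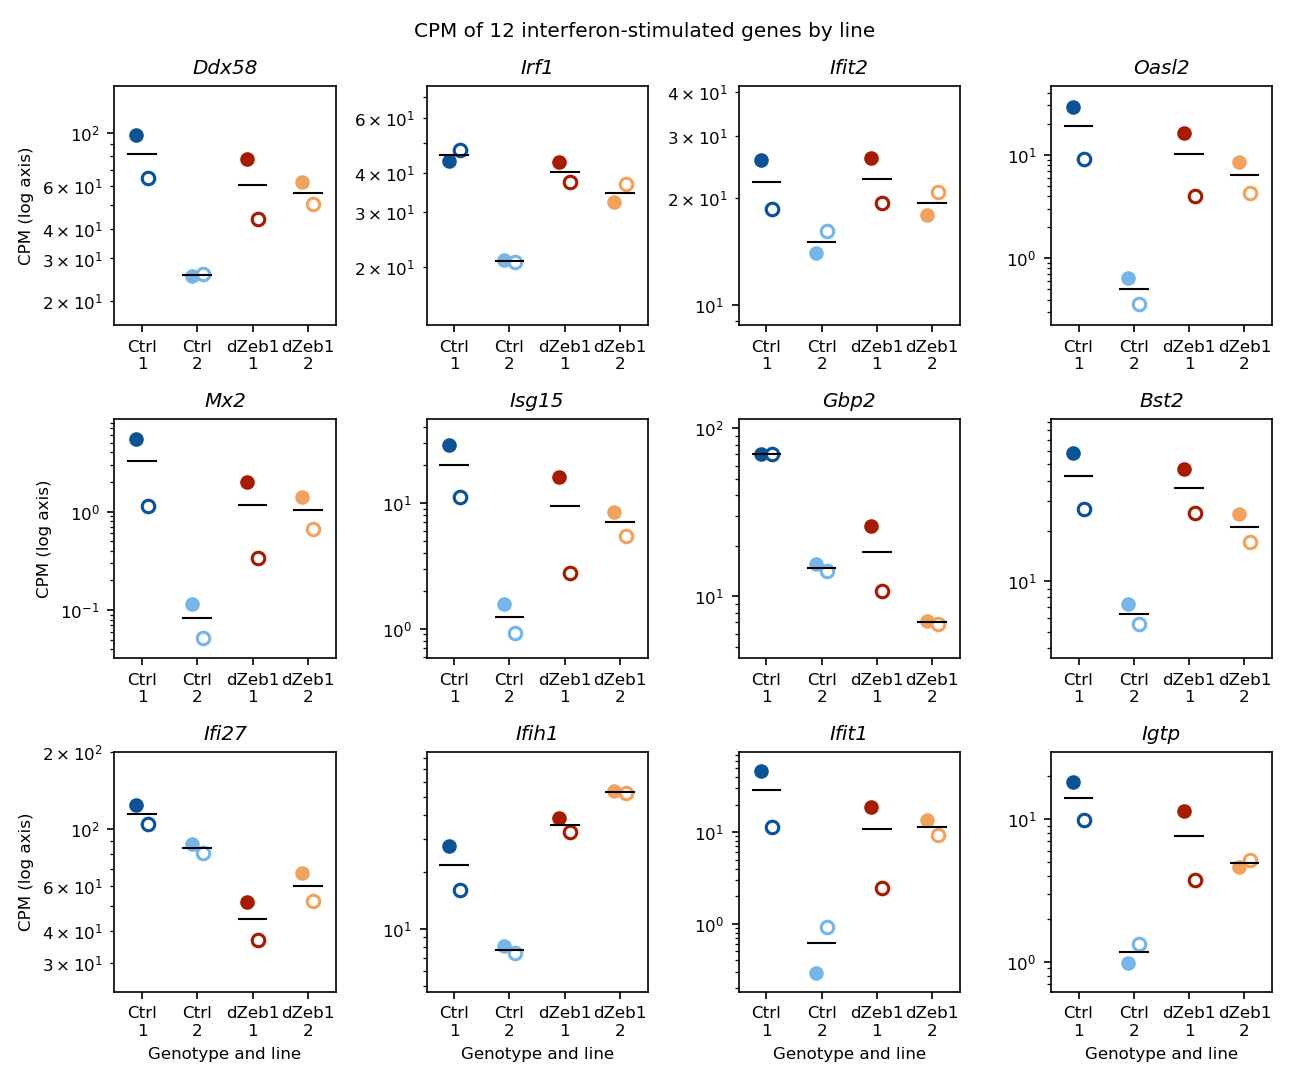
CPM on a log axis of 12 genes, the most abundant of each role and Ifih1, Ifit1 and Igtp, in the 4 lines. Filled circles are replicate 1, open circles replicate 2 and the black bar the mean of both. In 10 of the panels the pair of Fib-Ctrl line 2 circles is the lowest, while Gbp2 is lowest in Fib-dZeb1 line 2 and Ifi27 in Fib-dZeb1 line 1.

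Genes with an ISRE core and without one both fell between the Fib-Ctrl lines. The median log2 difference was -3.78 for the 16 with a core, of which 14 passed, and -2.85 for the 11 without, of which 6 passed. Over all genes tested, 8.72% passed as lower in line 2. For the GAS the medians were -1.96 for the 8 genes with it, of which 6 passed, and -3.45 for the 19 without, of which 14 passed. These are descriptions of 27 genes with windows, and no test was run on them.

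Between the Fib-dZeb1 lines, none of the 34 genes passed (6.87% of all genes tested did). At an unadjusted p under 0.05 there were 2, and DESeq2 called 1, Gbp2 (12.6% of all genes tested by DESeq2). The median log2 difference of line 2 minus line 1 was -0.23 beside -0.01 for all genes, with a range from -1.39 for Gbp2 to 0.57 for Ifih1. The difference between the Fib-Ctrl lines was the larger in size for each of the 34. A p over the threshold does not show that the Fib-dZeb1 lines were alike, since the replicates of line 1 were far apart for many genes, as for Ifit1 at 18.9 and 2.47 CPM.

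The 2 line differences were compared directly, as the log2 difference of lines in Fib-dZeb1 less that in Fib-Ctrl. Each genotype had only 1 pair of lines, and the error came from replicate libraries. The test therefore compares these pairs of lines and cannot show that a line difference depends on genotype. Of the 34 genes 7 passed, all with positive values, meaning a larger fall from line 1 to line 2 in Fib-Ctrl or a larger rise in Fib-dZeb1 (7.74% of all genes tested passed in this direction). The 7 were Ifit1 (log2 difference 5.62, SE 1.52, adjusted p = 0.0464), Oasl1 (log2 difference 4.99, SE 1.11, adjusted p = 0.0252), Oasl2 (log2 difference 4.58, SE 1.22, adjusted p = 0.0448), Igtp (log2 difference 2.97, SE 0.78, adjusted p = 0.0418), Ifih1 (log2 difference 2.07, SE 0.34, adjusted p = 0.00982), Ddx58 (log2 difference 1.56, SE 0.42, adjusted p = 0.0444) and Irf1 (log2 difference 0.90, SE 0.18, adjusted p = 0.0171). Between the Fib-dZeb1 lines their own log2 differences ran from -0.68 for Oasl2 to 0.57 for Ifih1, with Oasl1 (0.35) and Ifit1 (0.11) also above 0, and none passed. All 34 values were positive, with a median of 2.91 beside -0.01 over all genes. DESeq2 called 28 of the 34 (10% of all genes in this direction). Leaving out either library of Fib-Ctrl line 2, or replicate 2 of Fib-dZeb1 line 2, left Ifih1 alone. Leaving out replicate 1 of Fib-Ctrl line 1 or of Fib-dZeb1 line 2 left Ifih1 and Irf1, whereas 32 genes passed once replicate 1 of Fib-dZeb1 line 1 was left out. Lines of the same number are not stated to be related, so the sign and size of this contrast depend on how the lines were numbered. In the test of any difference among the 4 lines, 21 of the 34 passed (44.1% of all genes tested).

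**Figure D4:**
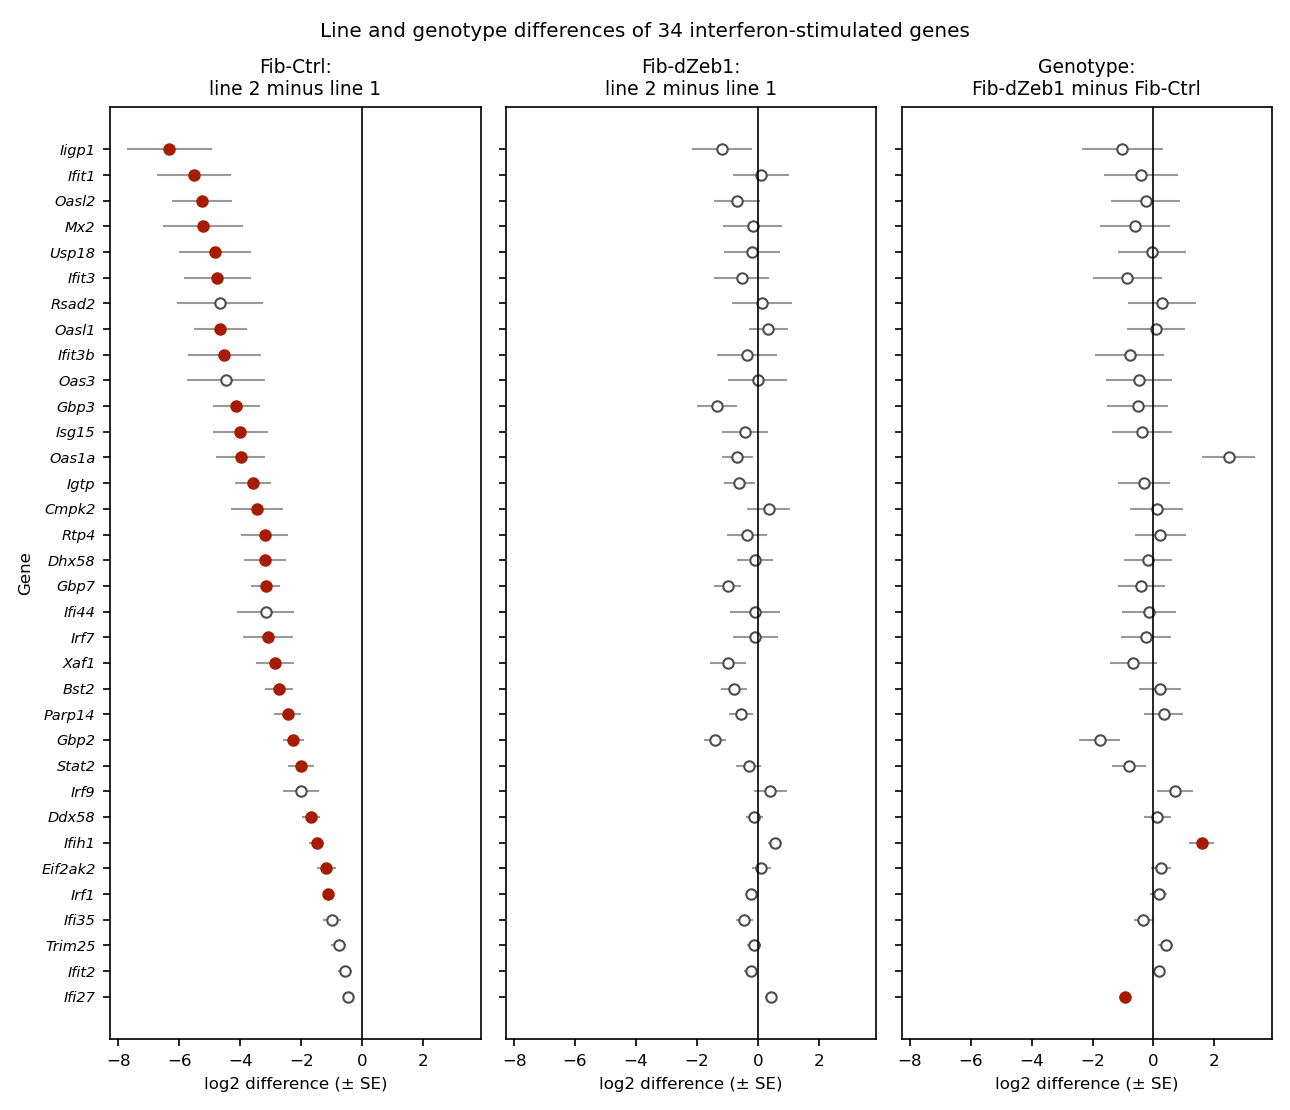
Log2 differences with their SE for the 34 tested genes, ordered by the difference between the Fib-Ctrl lines (left), with the difference between the Fib-dZeb1 lines (middle) and between genotypes (right). Filled red circles passed at an adjusted p under 0.05. All values lie left of 0 in the left panel, with 26 filled, while the middle panel has none filled and the right panel has Ifih1 (1.58) and Ifi27 (-0.94).

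Between genotypes, 2 of the 34 genes passed, which is fewer than the 16.2% of all genes tested that did. Ifih1 (GRCm38, chr2:62595798-62646255, minus strand) was higher in Fib-dZeb1 (log2 difference 1.58, SE 0.41, adjusted p = 0.0356), where Fib-Ctrl averaged 14.8 ± 9.36 CPM against 44.2 ± 10.3 CPM for Fib-dZeb1 (SD, n = 4 libraries each). Every Fib-dZeb1 library lay above every Fib-Ctrl library, in both lines. Ifi27, which encodes a small hydrophobic protein of mitochondrial and nuclear membranes and was the most abundant of the 36 at a mean of 211 TPM, was lower (log2 difference -0.94, SE 0.20, adjusted p = 0.0181). It read 125 and 105 CPM in Fib-Ctrl line 1, 87.6 and 81.0 CPM in Fib-Ctrl line 2, 52.0 and 37.0 CPM in Fib-dZeb1 line 1 and 67.3 and 52.2 CPM in Fib-dZeb1 line 2, so the genotypes did not overlap either. Oas1a was the only other gene whose genotypes did not overlap, which makes 3 of 34 against 24.3% of all genes tested, and it did not pass (log2 difference 2.47, SE 0.87, adjusted p = 0.0846). In other fits DESeq2 called 4 of the 34 (24.8% of all genes), the fit with 4 line means 5 (Gbp2, Ifi27, Ifih1, Irf1 and Oas1a, beside 37.0% of all genes) and limma-voom with a correlation within lines none, with 3 at an unadjusted p under 0.05 (2.01% of all genes called). The call of Ifih1 held without Fib-Ctrl line 1 replicate 1 and was lost without any other single library (adjusted p up to 0.0888), and that of Ifi27 was lost without Fib-dZeb1 line 2 replicate 2 (0.0539).

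The remaining 32 genes had adjusted p from 0.0846 to 0.988. The most abundant of the other roles gave log2 difference 0.13, SE 0.44, adjusted p = 0.866 for Ddx58, log2 difference 0.17, SE 0.29, adjusted p = 0.718 for Irf1, log2 difference 0.17, SE 0.21, adjusted p = 0.603 for Ifit2, log2 difference -0.25, SE 1.13, adjusted p = 0.905 for Oasl2, log2 difference -0.62, SE 1.15, adjusted p = 0.748 for Mx2, log2 difference -0.38, SE 0.98, adjusted p = 0.823 for Isg15, log2 difference -1.76, SE 0.67, adjusted p = 0.106 for Gbp2 and log2 difference 0.23, SE 0.69, adjusted p = 0.852 for Bst2. The standard errors of about 1 for Oasl2, Mx2 and Isg15 reflect Fib-Ctrl libraries at both ends of the range. Over the 34 genes, 14 genotype differences were positive and 20 negative, with a median of -0.21 beside 0.00 for all genes. The sign of that median turned with the scale and with 1 library. It was 0.58 when each of the 4 lines had its own mean and counted equally on the log scale, 0.57 on log2(TPM + 0.1) and 0.80 without Fib-Ctrl line 1 replicate 1. With the 2 libraries of each line summed, so that the culture was the unit, none of the 34 passed and 2 had an unadjusted p under 0.05, while 15 of the 12963 genes passed. With 2 lines against 2, an exact permutation test could not give a two-sided p below 0.333.

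The replicates of a line also differed in a shared direction. In the median of the 34 genes, replicate 2 minus replicate 1 was -1.0 on the log2(CPM + 0.5) scale in Fib-Ctrl line 1, -0.14 in Fib-Ctrl line 2, -1.39 in Fib-dZeb1 line 1 and -0.53 in Fib-dZeb1 line 2, beside -0.01 to 0.00 over all genes. Replicate 2 was the lower for 31, 23, 34 and 29 of the 34 genes in these lines, and for at most 52.0% of all genes in any line. Among genes with more than 3 reads in both libraries, the ratio of replicate 2 to replicate 1 in Fib-dZeb1 line 1 was lowest for Ifit3b (0.10), Iigp1 (0.111) and Oas3 (0.125) and highest for Irf1 (0.866). The edgeR test of replicate 2 against replicate 1 over all lines called none of the 34 (0.0231% of all genes tested) and had 26 at an unadjusted p under 0.05, while DESeq2 called 14, all lower in replicate 2 (2.80% of all genes). Marker genes of other lists moved with the replicate number as well. The 9 fibroblast markers had a median log2 difference of -0.62 in the same fit, with 7 at an unadjusted p under 0.05 and none called, and their summed TPM was lower in replicate 2 of every line (14900 against 19000, 16300 against 18700, 7190 against 11000 and 8730 against 11200, in the order above). The summed epithelial markers were higher in replicate 2 of every line (6.61 against 3.58, 4.09 against 2.43, 191 against 71.9 and 41.9 against 25.8 TPM). Their part in the replicate difference was not tested. The labels give no date or batch for the replicate number. Every line had 1 library of each number, so the line and genotype contrasts are balanced for it. Its part in the differences between lines was not tested beyond the fit that includes it.

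The other genes of the pathway were read from lists that do not overlap with the 36. The 10 interferon ligand genes had 1 read in all 8 libraries together, from Ifnb1 in Fib-Ctrl line 1 replicate 2, and 9 of them had none, which allows up to 0.110 to 0.175 CPM per library and gene by counting error alone. The 6 receptor genes were expressed in every line. Ifnar2 was the most abundant at 49.8 TPM and passed between the Fib-Ctrl lines (log2 difference -0.64, SE 0.16, adjusted p = 0.0364), as did Ifngr2 (log2 difference -0.66, SE 0.14, adjusted p = 0.0224), whereas Ifngr1 did not (log2 difference -0.15, SE 0.11, adjusted p = 0.397). No receptor gene passed between genotypes. The receptor median between the Fib-Ctrl lines was -0.46, a small value beside the -3.18 of the 34 genes. Jak1, the most abundant kinase gene of the pathway at 87.4 TPM, did not pass between the Fib-Ctrl lines (log2 difference 0.17, SE 0.11, adjusted p = 0.332). Stat3, the mediator of interleukin-6 signals, was lower in Fib-dZeb1 (log2 difference -0.74, SE 0.20, adjusted p = 0.0397).

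Of the 11 tested genes of upstream sensing and induction, 1 was lower and 1 higher in Fib-Ctrl line 2, which is about the share of all genes called in that contrast (17.0%). Tmem173, the gene of the DNA-sensing adaptor STING and the most abundant of the list at 42.7 TPM, was lower (log2 difference -1.01, SE 0.19, adjusted p = 0.0143). Tlr4, the lipopolysaccharide receptor, was higher (log2 difference 0.74, SE 0.17, adjusted p = 0.0250). Mavs, the adaptor of the RNA sensors, did not pass (log2 difference -0.18, SE 0.11, adjusted p = 0.273), and none of the list passed between genotypes. Of the 6 feedback inhibitors 2 were higher in Fib-dZeb1, beside 978 of the 12963 genes tested that were higher. Ptpn2, a phosphatase that acts on JAKs and STATs, rose with little spread (log2 difference 0.94, SE 0.10, adjusted p = 0.00169), and Ptpn6, which encodes the phosphatase SHP-1, rose from low levels (log2 difference 4.12, SE 0.52, adjusted p = 0.00310). Socs3 passed neither between genotypes (log2 difference -0.82, SE 0.43, adjusted p = 0.224) nor between the Fib-Ctrl lines (log2 difference -1.02, SE 0.50, adjusted p = 0.208). Irf2, a repressor at ISREs, was lower in Fib-Ctrl line 2 (log2 difference -0.68, SE 0.15, adjusted p = 0.0252).

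A further list of 40 interferon-stimulated genes gave 33 that were tested. Between the Fib-Ctrl lines 25 of the 33 were lower and 1, Sp100, was higher in line 2, with a median of -1.76. Of all genes tested, 8.72% were lower in line 2. The Fib-dZeb1 lines differed in part of this list too, with 5 of the 33 lower and 1 higher in line 2. Those 6 are 18.2% of the 33, beside 6.87% of all genes called in that contrast. The median of the 33 between the Fib-dZeb1 lines was -0.46. Ifitm3 and Ifitm2, which block virus entry at membranes, were the most abundant at 1030 and 813 TPM and fell (log2 difference -1.33, SE 0.17, adjusted p = 0.00368 and log2 difference -0.94, SE 0.19, adjusted p = 0.0176). Between genotypes 1 of the 33 passed, Ifi209 (log2 difference 5.16, SE 1.12, adjusted p = 0.0185), which had reads in 1 Fib-Ctrl library only. That share is below the 16.2% of all genes tested. As this list was drawn up with results of these libraries known, it is no independent evidence of the pattern.

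**Figure D5:**
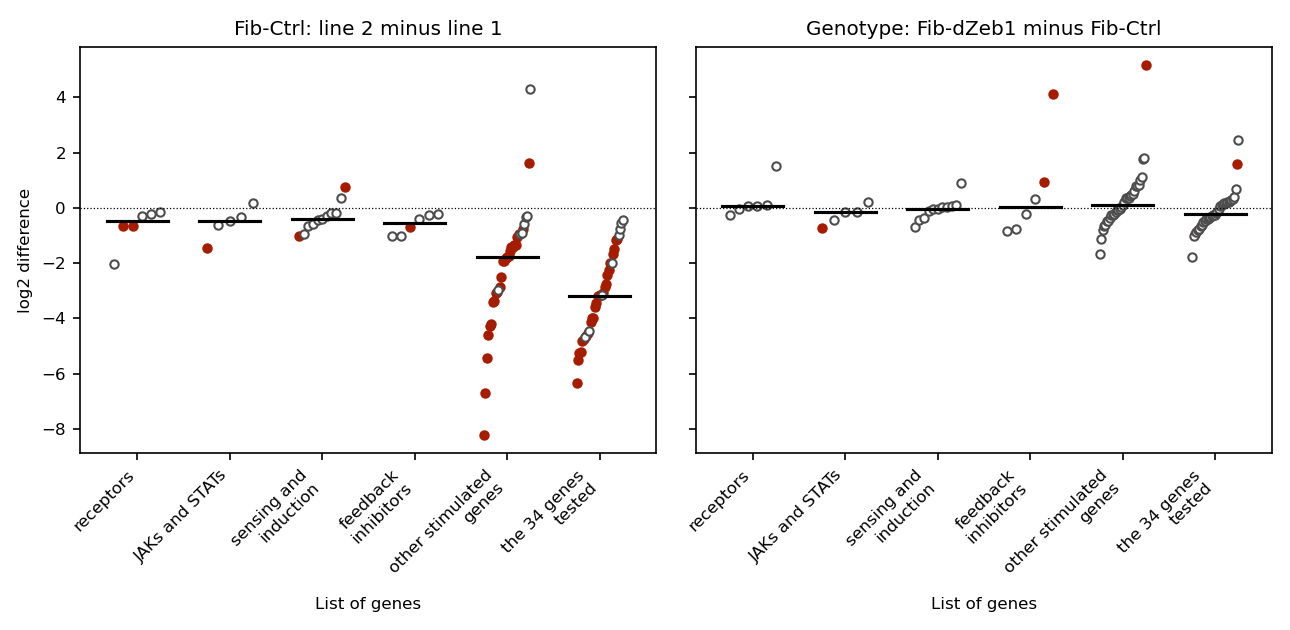
Log2 differences between the Fib-Ctrl lines (left) and between genotypes (right) for the tested genes of 5 pathway lists and for the 34 interferon-stimulated genes. Each circle is a gene, filled red where the adjusted p was under 0.05, and the black bar is the median. On the left most receptors, kinases, sensors and inhibitors sit within about 1 unit of 0, with Ifnlr1 the farthest at -2.02 (adjusted p = 0.0626), and both lists of stimulated genes reach far below, whereas on the right all medians lie near 0.

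Immune cell markers moved in part with the line difference. The 11 markers summed to 25.6 and 12.7 TPM in Fib-Ctrl line 1 and to 3.54 to 7.61 TPM in the other 6 libraries, and 5 to 7 of the 11 had no reads in a library. Lyz2 made up 21.6 and 9.73 TPM of the sums in Fib-Ctrl line 1, and with the highest marker of each library left out the sums were 2.21 to 3.99 TPM. The markers Adgre1, Tyrobp and Siglech had no reads in any library, and Ptprc had 6 reads in all 8. Cd68, Csf1r and Lyz2 passed the expression filter, and none was called between the Fib-Ctrl lines. Their log2 differences there were 0.38 (SE 0.60), -0.34 (SE 0.38) and -2.21 (SE 0.73). Of the 9 fibroblast markers 3 were lower in Fib-dZeb1 (Col1a1, Col1a2 and Pdgfrb), beside 1121 of the 12963 genes tested that were lower. The summed epithelial markers moved with genotype as well, from 2.43 to 6.61 TPM in Fib-Ctrl to 25.8 to 191 TPM in Fib-dZeb1. In Fib-dZeb1 line 1 Krt18 alone made up 66.6 of 71.9 and 179 of 191 TPM. With the highest marker of each library left out, the sums were 0.17 to 1.18 TPM in Fib-Ctrl and 5.23 to 15.3 TPM in Fib-dZeb1. Of the 8 markers 3 were tested, and Epcam and Krt18 passed between genotypes while Krt19 did not (adjusted p = 0.106). Endothelial markers stayed at or under 1.35 TPM. Their part in the levels of the interferon-stimulated genes was not tested.

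The genes resembled each other closely over the 8 libraries, which share their line and replicate structure. Isg15 had the largest mean correlation with the other 33 (Pearson's r = 0.890 on z-scored log2 CPM, as a description). Against the mean of the other 33, the correlation was 0.80 or more for 30 genes and lower for Ifi27 (0.19), Gbp2 (0.54), Ifih1 (0.59) and Oas1a (0.62). Outside the 34, the genes most like their mean z-score were Acap2 (0.991), Helz2 (0.986), Parp9 (0.984), Tob1 (0.983) and Ap4m1 (0.982). Their fluctuations were of different size, as Helz2 averaged 58.3 CPM in Fib-Ctrl line 1 and 16.0 CPM in Fib-Ctrl line 2, and Acap2 135 and 90.6 CPM.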

How the data were processed

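The authors aligned the reads to GRCm38 with STAR and quantified transcripts with Salmon, with no version or strand setting given in the labels. The deposited files hold estimated counts and TPM values (relative transcript abundance) for 109617 transcripts of each library. Transcripts were added up per gene by GENCODE M21, which matched 98.72% of transcripts and left out 0.262 to 0.303% of reads, and summed counts were rounded to whole numbers. Genes with at least 10 reads in at least 4 libraries were tested with edgeR 4.0.16 (R 4.3.3), TMM scaling, the quasi-likelihood test and Benjamini-Hochberg adjustment over 12963 genes at a threshold of 0.05. The genotype fit compared 4 libraries with 4, and the line contrasts came from a fit with 1 mean per line. Where nothing says that replicates were separate cultures, p-values measure only the spread between these libraries. Alternatives used DESeq2 1.42.0, limma 3.58.1, other scalings and filters, and each library left out. The interferon-stimulated genes and the pathway and marker lists were chosen with earlier results of these data known. Genes named in full were those called between genotypes or in a line contrast and the most abundant of each role or list. Other pathway genes were named after their values were seen. The scripts were tested on simulated data. The result of 1 gene of the pathway lists is not reported here.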

Additional observations from a re-analysis of the deposited data

Results flagged for a closer look

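In 3 of 72 pairs of gene and genotype, 1 library stood apart from the other 3 by Dixon's ratio of gap to range, and chance alone gives about 5% of pairs. The ratio was 0.898 for Mx1 in Fib-Ctrl, 0.879 for Gbp3 in Fib-dZeb1 and 0.958 for Ifi35 in Fib-dZeb1, each for the highest library.

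The test of the difference between the line contrasts singled out 7 genes, given as the log2 difference of line 2 minus line 1 in Fib-dZeb1 less that in Fib-Ctrl. The values were 5.62 for Ifit1, 4.99 for Oasl1, 4.58 for Oasl2, 2.97 for Igtp, 2.07 for Ifih1, 1.56 for Ddx58 and 0.90 for Irf1. With 1 pair of lines per genotype, they compare pairs of lines and not genotypes.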

How the results depend on the processing

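No called value changed sign. The median genotype difference, which has no test, was -0.21 and turned positive with 4 line means (0.58), on TPM (0.57), with limma-voom (0.31), once replicate 1 of Fib-Ctrl line 1 was left out (0.80) and once replicate 2 of Fib-dZeb1 line 1 was (0.03). The counts below carry in brackets the share of all genes called in the same fit, in either direction. Between genotypes 2 genes passed (16.2%), and 0 to 2 did when each library was left out in turn (7.46% to 16.3%). The count was 4 with DESeq2 (24.8%) and 5 with 4 line means (37.0%). It was 0 with lines summed (0.116%) and 0 with limma-voom and a line correlation (2.01%). Between the Fib-Ctrl lines the 26 (17.0%) became 35 without the expression filter (16.7%) and 32 with DESeq2 (22.1%). The median log2 difference there ran from -3.68 to -2.52 across the libraries left out. Between the Fib-dZeb1 lines 0 (6.87%) became 8 without the expression filter (10.4%) and 1 with DESeq2 (12.6%). The median there ran from -0.88 to 0.70 across the libraries left out. For the difference of the line contrasts, 7 (15.3%) became 32 without the filter (15.3%) and 28 with DESeq2 (20.1%). Its median ran from 2.13 to 4.0 across the libraries left out. Among the 4 lines 21 became 6 to 33 across the libraries left out, 35 without the filter and 33 with DESeq2. For replicate 2 against replicate 1, 0 (0.0231%) became 11 without the filter (1.42%) and 14 with DESeq2 (5.17%). It stayed at 0 across the libraries left out. The cause of these shifts was not tested.

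With the replicate number as a replicate block, 33 genes passed between the Fib-Ctrl lines, 3 genes passed between the Fib-dZeb1 lines (Bst2, Gbp2 and Ifi27), 29 in the difference of the line contrasts, 33 among the 4 lines and 2 between genotypes. The shares of all genes called in these fits were 25.8%, 13.5%, 24.0%, 57.1% and 15.2%, in the same order. Fib-Ctrl and Fib-dZeb1 libraries that carry the same numbers for line and replicate, though from different lines, had correlations of deviations from -0.05 to 0.23. Of the 8 libraries 3 correlated best with their own number. These correlations are no test of a replicate effect shared by all lines. Genes with 3 or fewer reads in Fib-Ctrl line 2 are limited by depth there.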
